A study of Mus musculus with 14 samples.

Results

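Sarcomeric myosin heavy chains are the motor subunits of the thick filament of striated muscle. The members were the 8 genes Myh1, Myh2, Myh3, Myh4, Myh6, Myh7, Myh7b and Myh8, taken by gene symbol. They were measured by 13 of the 55681 probes of a 1-colour Agilent mouse array. All 8 genes had a probe that passed the filter on dim probes, among 14171 named genes that did, and 11 of the 13 probes passed it.

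The arrays held RNA of skeletal muscles of Ts1Cje mice, which carry a segmental trisomy and serve as a mouse model of Down syndrome, and of WT mice, their disomic littermates. All groups carry the strain label C57BL/6. The 4 groups were EDL (extensor digitorum longus) of Ts1Cje mice with 3 arrays, EDL of WT mice with 3, soleus of Ts1Cje mice with 4 and soleus of WT mice with 4. Per the labels, 25 ng of RNA was labelled for each array, and age and sex are not used here. The trisomy is constitutional, so non-muscle cells of the tissue carry it as well.

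Each heavy chain gives a fibre its contraction speed. In adult mouse limb muscle Myh7 marks slow type I fibres, and Myh2, Myh1 and Myh4 mark fast IIa, IIx and IIb fibres, with IIb the fastest. The mouse EDL is a fast muscle rich in IIb and IIx fibres, and the soleus is a mixed muscle of mainly type I and IIa fibres. Myh3 and Myh8 are the embryonic and neonatal chains, Myh6 is the alpha chain of the heart, and Myh7b is an ancient slow-type chain that hosts a microRNA.

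The RefSeq annotation (GRCm38.p6) places Myh3, Myh2, Myh1, Myh4 and Myh8 in that order on chromosome 11, between 67078273 and 67308634. Myh6 and Myh7 are neighbours on chromosome 14, and Myh7b lies alone on chromosome 2. The probes are 60 bases long, and their mm9 positions are those of the authors' deposited table, which names the gene and not the exon. The lines below show the probes on which the results turn, whole or by their first 30 bases.

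Myh4, A_51_P338072, chr11:67073834-67073893, first 30 bases: gaagaataatccatctttctgttgagaggt
Myh7, A_55_P2093232, chr14:55589581-55589640, first 30 bases: atgaggagtagctcttgtgctacccagctc
Myh7b, A_55_P2057321, chr2:155459122-155459181: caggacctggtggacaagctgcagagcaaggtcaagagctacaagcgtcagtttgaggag
Myh8, A_51_P143296, chr11:67121925-67121984: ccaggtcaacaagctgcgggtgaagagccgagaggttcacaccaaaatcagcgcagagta
Myh8, A_55_P2120161, chr11:67093475-67093534: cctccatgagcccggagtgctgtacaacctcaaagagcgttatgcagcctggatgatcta
Myh6, A_55_P2140453, chr14:55584132-55584191: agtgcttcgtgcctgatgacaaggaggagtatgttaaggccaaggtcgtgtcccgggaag
Myh6, A_55_P2173952, chr14:55560774-55560833, first 30 bases: gcacgacgaggaataacctctccagcagac
Myh3, A_55_P2083406, chr11:66915107-66915166: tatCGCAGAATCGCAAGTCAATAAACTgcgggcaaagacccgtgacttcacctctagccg
Myh15, A_55_P2090065, chr16:49196943-49197002: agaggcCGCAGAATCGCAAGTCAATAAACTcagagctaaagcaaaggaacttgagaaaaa

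The capitals mark the run of 24 bases that the Myh3 probe A_55_P2083406 shares with the probe of Myh15, a related heavy chain that is no member. No other pair among 22 heavy chain probes shared a run of more than 10 bases. The probes lie at different places in their transcripts, so this does not tell how far a probe pairs with the other chains' transcripts. The Myh15 probe was well above background on 0 EDL arrays and on 2 of 4 soleus arrays in each genotype.

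Each level below is the log2 of a probe's signal minus the log2 of the 75th percentile of its array, so a step of 1 is a doubling. Probes bind with different strength, so levels of different probes were not ranked against each other. The 75th percentile of the signal ranged from 62.4 to 144 over the 14 arrays. On each array 41.3% to 52.9% of probes were well above background, and no probe had most of its used spots saturated. The 6 EDL arrays were on slide 1 together with replicate 1 of soleus Ts1Cje, and the 7 remaining soleus arrays were on slide 2. Whole muscle RNA cannot tell fewer fibres of a type from less RNA per fibre.

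In the soleus, Myh4 was the single member that changed with the genotype, and it fell. The soleus Ts1Cje arrays had Myh4 levels of 5.69, 7.07, 4.42 and 3.88, against 9.67, 9.26, 9.83 and 8.79 in the soleus WT arrays. The highest Ts1Cje array lay below the lowest WT array, so the groups did not overlap. The log2 difference was -4.12 ± 0.53 (SE, 95% interval -5.27 to -2.96), a 17.4-fold lower level in Ts1Cje soleus (limma, adjusted p = 0.00642 over 14171 genes). An exact permutation test of these 8 arrays gave p = 0.0286 (two-sided), the smallest value that 4 against 4 arrays allow.

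Of the 8 members, 1 was called in the soleus, where 0.247% of all genes tested were called, and 0.0706% were called lower. The groups did not overlap for 1 of the 8 members, against 8.4% of all genes. The Ts1Cje arrays also differed among themselves more than the WT arrays did in Myh4, with an SD of 1.42 against 0.47. That SD ranked 30 from the largest among 14171 genes in soleus Ts1Cje, where the median SD was 0.22. Without soleus Ts1Cje replicate 2, the array with the highest Myh4 in that group, the difference was -4.72 (adjusted p = 0.000291), and leaving out any other soleus array gave -4.32 to -3.66 with Myh4 still called. Within slide 2 alone it was -4.26 (limma, adjusted p = 0.155), and with only the 8 soleus arrays fitted the same difference had an adjusted p of 0.0731, so neither fit called it.

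In the EDL, where IIb fibres are plentiful, Myh4 levels were 11.79, 11.84 and 11.25 in the Ts1Cje arrays and 11.60, 11.94 and 11.25 in the WT arrays. The groups overlapped fully, and the log2 difference was 0.03 ± 0.62 (SE, 95% interval -1.30 to 1.37, limma, adjusted p = 0.99997). The test of whether the genotype effect differed between muscles gave 4.15 ± 0.82 on the log2 scale for Myh4 (95% interval 2.39 to 5.92), with an unadjusted p of 0.000216 and an adjusted p of 0.898, so the muscles were not shown to differ over all genes. In that test limma called 0 of 14171 genes (0% called), and 455 had an unadjusted p under 0.05. Leaving out 1 array at a time gave 3.69 to 4.75 for Myh4, with limma adjusted p from 0.0315 to 0.99973. Of these 14 fits, 1 called Myh4, as the 1 gene called (4.75, adjusted p = 0.0315). That fit left out soleus Ts1Cje replicate 2, the array with the highest Myh4 in its group.

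**Figure D1:**
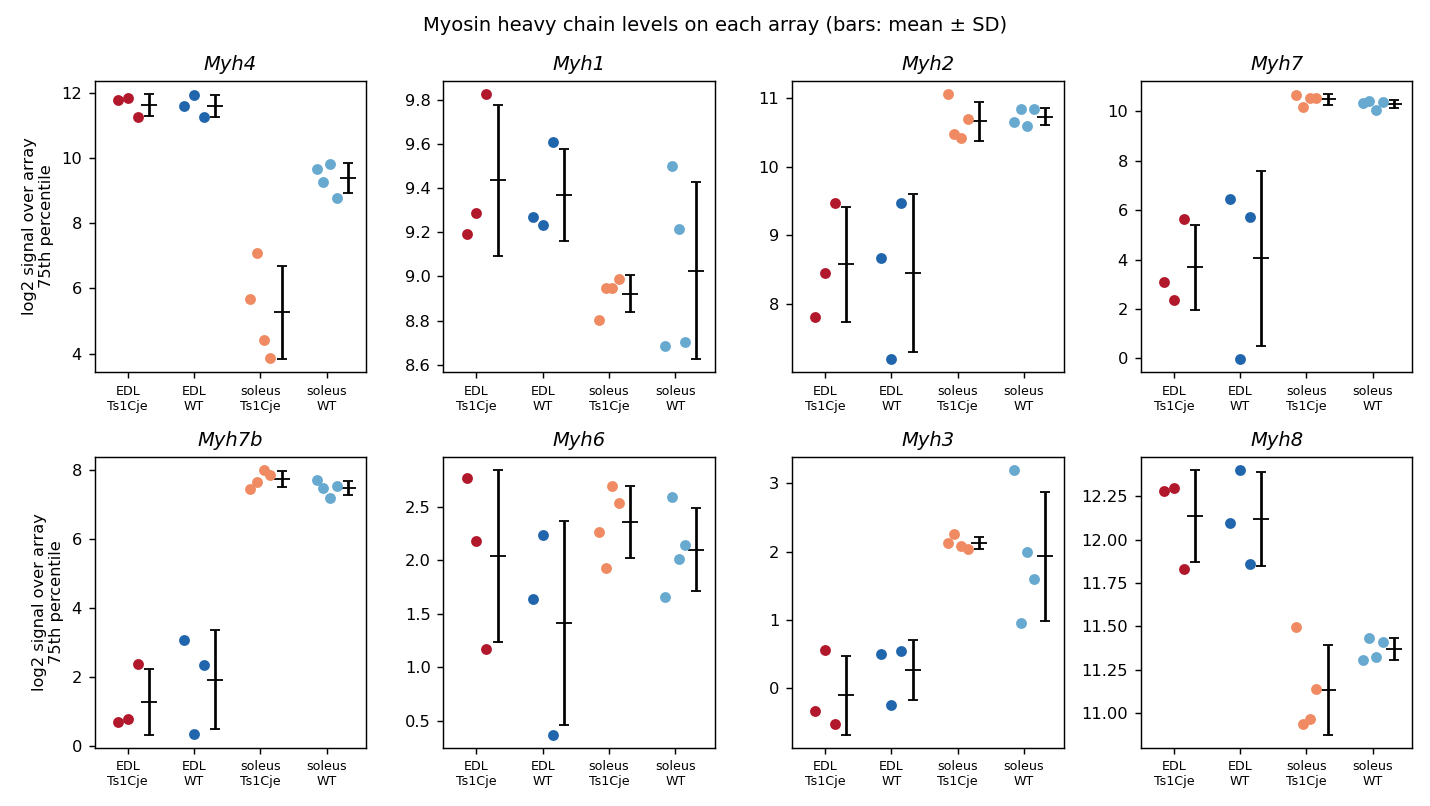
Level of each heavy chain (log2 signal over the 75th percentile of the array) on each of the 14 arrays, by muscle and genotype, with the mean and SD of each group beside the points. The 4 soleus Ts1Cje arrays lie at 3.88 to 7.07 for Myh4 and the 4 soleus WT arrays at 8.79 to 9.83, and for the other 7 members the soleus genotypes overlap. Each panel has its own scale.

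The other adult fast chains did not pass the test in either muscle. Myh1, the IIx chain whose gene is the nearest of the members to Myh4, had levels of 8.80, 8.95, 8.95 and 8.99 in soleus Ts1Cje and 8.69, 9.5, 9.22 and 8.70 in soleus WT. The 4 Ts1Cje values lay inside the range of the WT values. The difference was -0.10 ± 0.19 (SE, 95% interval -0.52 to 0.31), and in the EDL it was 0.06 ± 0.22 (95% interval -0.41 to 0.54). Myh2, the IIa chain, had levels of 10.41 to 11.06 in soleus Ts1Cje and 10.59 to 10.85 in soleus WT, with a difference of -0.07 ± 0.42 (95% interval -0.98 to 0.83).

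The slow chains gave no genotype call in the soleus. Myh7 had levels of 10.66, 10.18, 10.54 and 10.56 in soleus Ts1Cje and 10.35, 10.41, 10.08 and 10.38 in soleus WT. The groups overlapped, and the difference was 0.18 ± 1.11 (SE, 95% interval -2.21 to 2.58), an interval that is wide because the fit pools the spread over all 4 groups and the EDL arrays varied more. With only the soleus arrays fitted the standard error was 0.13 and the adjusted p was 0.529. Myh7b differed by 0.26 ± 0.49 (95% interval -0.80 to 1.33), with Ts1Cje levels of 7.46 to 8.0 and WT levels of 7.19 to 7.69.

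In the EDL, Myh2 had levels of 7.82, 8.45 and 9.47 in Ts1Cje and 8.68, 7.20 and 9.48 in WT, a difference of 0.13 ± 0.48. Myh7 differed there by -0.36 ± 1.28 (95% interval -3.12 to 2.41) and Myh7b by -0.65 ± 0.57 (95% interval -1.88 to 0.59). All EDL ranges of the genotypes overlapped, and these intervals leave room for differences of several fold in either direction for Myh7.

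Myh6 and the developmental chains also showed no genotype call. Myh6 differed by 0.26 ± 0.40 in the soleus and by 0.62 ± 0.46 in the EDL. Myh3 had levels of 2.04 to 2.25 in soleus Ts1Cje and of 0.95 to 3.19 in soleus WT, where replicate 1 was highest, and it differed by 0.19 ± 0.39. The EDL levels of Myh3 were -0.34, 0.56 and -0.52 in Ts1Cje and 0.50, -0.24 and 0.54 in WT, a difference of -0.37 ± 0.45. Myh8 had levels of 11.498, 10.94, 10.97 and 11.14 in soleus Ts1Cje and 11.31, 11.43, 11.32 and 11.41 in soleus WT. So 3 Ts1Cje arrays lay below all WT arrays, and replicate 1, the only soleus array on slide 1, lay above them. Myh8 differed by -0.23 ± 0.15 (95% interval -0.57 to 0.10). In the EDL it differed by 0.02 ± 0.18. There 0 of 8 members were called, 1 of 14171 genes was (0.00706%), 409 genes had an unadjusted p under 0.05, and the groups did not overlap for 0 of 8 members, against 5.6% of all genes. With 3 against 3 arrays the exact permutation test cannot go below p = 0.1, and of the 8 EDL tests 0 reached it.

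**Figure D2:**
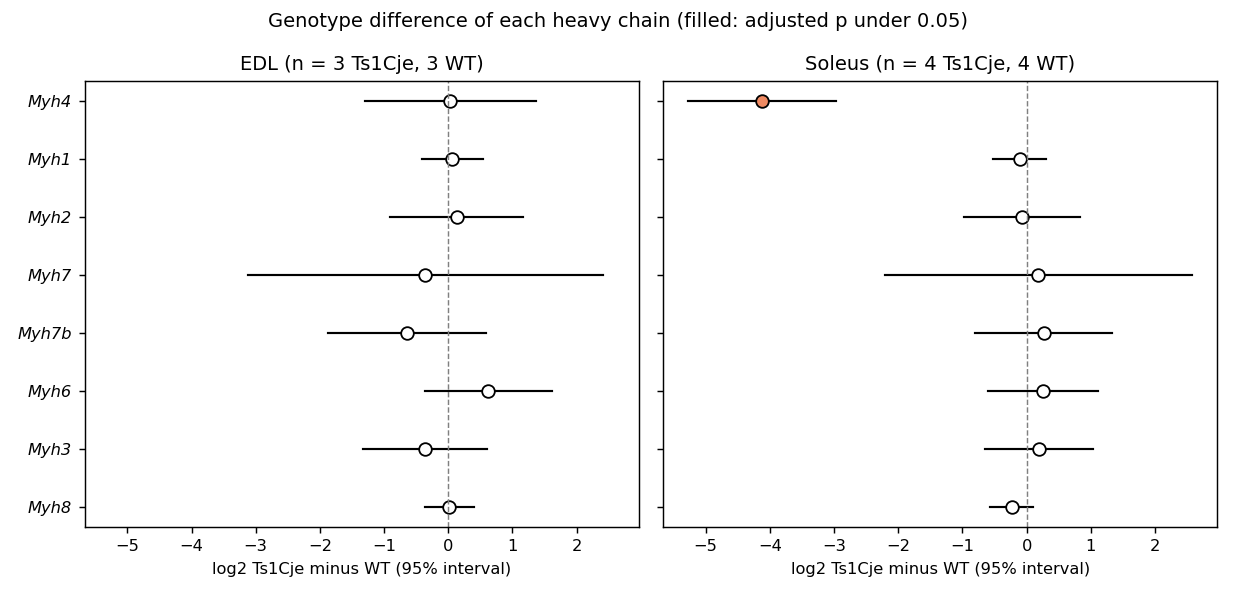
Difference between Ts1Cje and WT muscles for each heavy chain on the log2 scale, in the EDL on the left and the soleus on the right, with 95% intervals from the limma fit; filled points are called at an adjusted p under 0.05. Myh4 in the soleus, at -4.12, is the 1 filled point.

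The balance of the IIb chain against the slow chain was taken as log2 Myh4 minus log2 Myh7 on each array, which does not depend on how an array is scaled and is read here only as a difference between arrays. It was -4.97, -3.10, -6.13 and -6.68 in the soleus Ts1Cje arrays, against -0.68, -1.15, -0.25 and -1.59 in the soleus WT arrays. The means were -5.22 ± 1.58 in Ts1Cje and -0.92 ± 0.58 in WT (SD, n = 4 each), and the groups did not overlap. The exact permutation test of the difference of -4.30 gave p = 0.0286 (two-sided), the smallest possible. On the same arrays Myh4 alone differed by -4.12 and Myh7 by 0.18, so this test is not separate from the Myh4 result above. In the EDL the means were 7.93 ± 2.05 in Ts1Cje and 7.54 ± 3.83 in WT (SD, n = 3 each), with an exact p of 0.8.

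Of the fast-fibre genes outside the thick filament, Pvalb and Actn3 also fell in Ts1Cje soleus. Of 11 measured genes of that list, 2 fell, 0 rose, and 9 were lower, with a median log2 change of -0.16 against 0.07 over all genes. Pvalb, the calcium buffer of fast fibres, had levels of 6.42, 6.59, 6.93 and 6.72 in soleus Ts1Cje and 8.58, 8.57, 8.93 and 8.0 in soleus WT. Pvalb fell by 1.86 on the log2 scale (SE 0.21, limma, adjusted p = 0.00317). Actn3, the fast-fibre alpha-actinin of the Z-disc, fell by 1.95 (SE 0.28, adjusted p = 0.0131), with levels of 3.54 to 4.56 in Ts1Cje and 5.13 to 6.45 in WT. The groups did not overlap for either gene, and these are lists chosen with earlier results of these data known.

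The partners that assemble with the heavy chains gave 0 calls between genotypes, as did the 10 measured genes of other thick filament and M-band proteins, where Mylk2, the skeletal light chain kinase, had the smallest p in the soleus at -0.31 ± 0.15. Mybpc2, the fast myosin-binding protein C, differed by -1.54 ± 0.31 in the soleus (limma, adjusted p = 0.0837), and Mylpf, the fast regulatory light chain, by -0.15 ± 0.19. All 4 slow partners were higher in Ts1Cje soleus, led by Myl6b, a light chain of slow muscle, with 1.04 ± 0.28 (adjusted p = 0.228). Of the slow-fibre genes outside the thick filament, 10 of 10 were higher and 0 were called, with a median of 0.28. Sln, which encodes sarcolipin, an inhibitor of the sarcoplasmic calcium pump, showed the smallest p among them at 1.5 ± 0.48 (adjusted p = 0.276), with levels of 7.28 to 7.43 in Ts1Cje and 5.22 to 6.57 in WT.

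Of the 17 fibre type regulators, 0 were called between genotypes in the soleus. Sox6, a repressor of slow-fibre genes, differed by -0.73 ± 0.27 (limma, adjusted p = 0.296), and Nfatc1, a calcineurin target, by -0.37 ± 0.19. The long noncoding RNA 2310065F04Rik, known as linc-MYH, lies between Myh3 and Myh2 on chromosome 11 and differed by -0.55 (adjusted p = 0.416). Among the myosin chaperones and turnover genes 0 of 10 were called, and Trim55, a ring-finger protein of the M-band, had the smallest p at -0.37 ± 0.17. Myh13, the extraocular chain, differed by 0.53 ± 0.38, and of the smooth and non-muscle chains Myh9 differed by 0.52 ± 0.17 (adjusted p = 0.276), so neither was called.

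**Figure D3:**
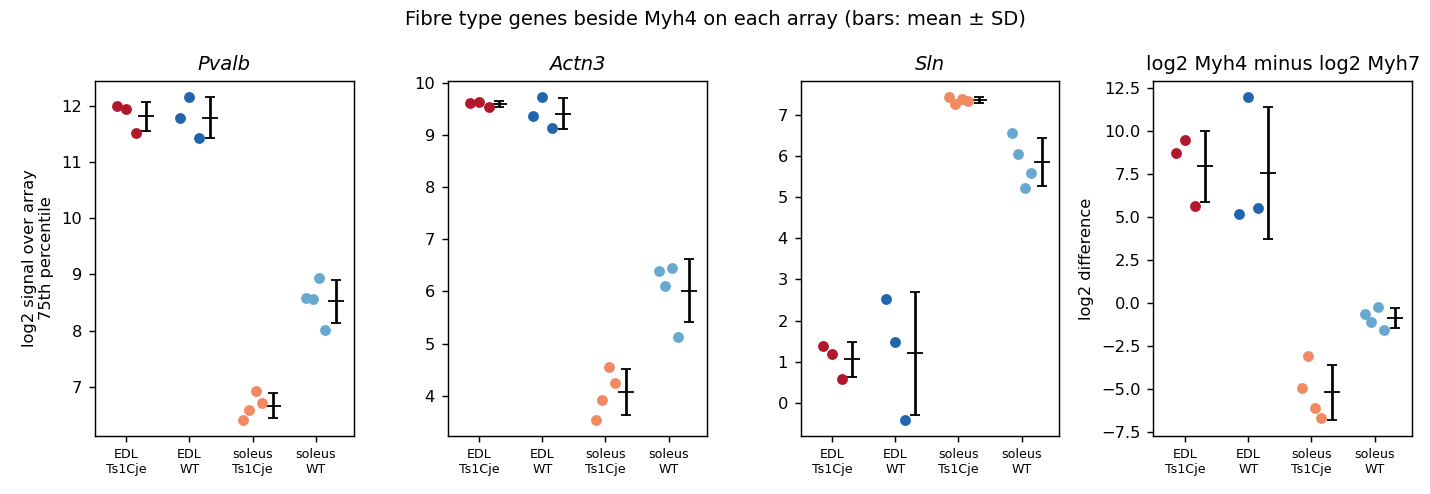
Levels of Pvalb, Actn3 and Sln (log2 signal over the 75th percentile of the array) and, on the right, log2 Myh4 minus log2 Myh7, on each of the 14 arrays, with the mean and SD of each group. In the soleus the Ts1Cje arrays lie below the WT arrays for Pvalb, Actn3 and the Myh4 to Myh7 difference, and above them for Sln.

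Markers of other cell types were set beside these values. In the soleus, the summed level of 6 red blood cell markers was 9.13 to 9.58 in Ts1Cje and 8.64 to 9.0 in WT, and the groups did not overlap. Of these markers 6 of 6 were higher, with a median difference of 0.40 and 0 called. The summed level of 4 adipocyte markers was 6.728 to 7.195 in Ts1Cje and 6.472 to 6.725 in WT, so these groups narrowly did not overlap. Of these markers 4 of 4 were higher, with a median difference of 0.54 and 0 called. The 7 measured markers of regenerating or immature fibres summed to 5.24 to 5.94 in Ts1Cje and 4.97 to 5.30 in WT, and the groups overlapped. Of the 7, 5 were higher, with a median difference of 0.29 and 0 called. Smooth muscle markers summed to 6.93 to 7.28 in Ts1Cje and 6.61 to 7.02 in WT, with 4 of 5 higher and a median difference of 0.44, and macrophage markers to 4.3 to 4.76 in Ts1Cje and 4.16 to 4.38 in WT, with 6 of 6 higher and a median of 0.15. In the remaining lists 4 of 6 fibroblast, 4 of 5 Schwann cell, 2 of 4 heart and 1 of 5 endothelium markers were higher. The median over all genes was 0.071, and 0 markers of these 6 lists were called in the soleus. Their part in the Myh4 result was not tested.

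The comparison of EDL with soleus gives the distribution of the chains between a fast and a slower muscle, and checks the muscle labels. In Ts1Cje mice 2 members rose in EDL, Myh4 and Myh8, and 4 fell, Myh2, Myh3, Myh7 and Myh7b, while Myh1 and Myh6 did not pass the test. In WT mice the same 2 rose and the same 4 fell. In all, 29.9% of genes were called in Ts1Cje (17.5% higher and 12.4% lower) and 29.8% in WT (20% higher and 9.76% lower). With the percentile taken over probes well above background on every array, the Ts1Cje split of 2484 higher and 1760 lower became 1793 and 2655, and that of WT, 2840 and 1383, became 1681 and 2413. That scaling, chosen after seeing the data, moved the median of all genes by -0.12 in Ts1Cje and by -0.17 in WT.

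The slow chains Myh7 and Myh7b fell in EDL. For Myh7 the log2 difference, EDL minus soleus, was -6.79 ± 1.2 in Ts1Cje mice (SE, limma, adjusted p = 0.00102), a 111-fold difference, and -6.25 ± 1.2 in WT mice (adjusted p = 0.00189), a 76.0-fold difference. Leaving out 1 array at a time gave -7.76 to -6.13 in Ts1Cje and -7.44 to -4.21 in WT, with Myh7 called each time, and the smallest difference was the one without EDL WT replicate 2. Myh7b gave -6.45 ± 0.53 in Ts1Cje (adjusted p = 3.20e-06) and -5.54 ± 0.53 in WT (adjusted p = 1.43e-05). For Myh2 it was -2.08 ± 0.45 in Ts1Cje and -2.28 ± 0.45 in WT. The embryonic chain Myh3, near the array's 75th percentile in EDL, gave -2.22 ± 0.42 in Ts1Cje and -1.67 ± 0.42 in WT.

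Myh4 rose in EDL. EDL exceeded soleus by 6.36 ± 0.58 in Ts1Cje (82.1-fold, adjusted p = 6.52e-06) and by 2.21 ± 0.58 in WT (4.62-fold, adjusted p = 0.0118), and the test of the difference between these is the one given above for the genotype effect. Myh8 was higher in EDL by 1.0 ± 0.17 in Ts1Cje and by 0.75 ± 0.17 in WT. Quantile scaling ended the calls of Myh8 in both genotypes and of Myh4 in WT (1.60, adjusted p = 0.0536), and put Myh1, not called in either setting, at -0.13 in Ts1Cje and -0.21 in WT, where the 75th percentile gave 0.51 in Ts1Cje and 0.34 in WT. The groups did not overlap in 7 of 8 members in Ts1Cje, against 35.4% of all genes, and in 6 of 8 in WT, against 38.9%.

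The slides limit the comparison of muscles. All EDL arrays were on slide 1 and all soleus arrays on slide 2 except soleus Ts1Cje replicate 1, so that in WT the muscle and the slide cannot be told apart from the WT arrays alone. With slide as a block, the slide effect rests on that 1 array. In Ts1Cje the difference is then the EDL mean minus this array, which is assumed to vary like the other groups. Its Myh4 level of 5.69 lay below the EDL Ts1Cje levels of 11.25 to 11.84, and on that assumption 5 of the 6 members stayed past the threshold and Myh8 did not (0.64, adjusted p = 0.0747). In WT, Myh7b stayed called. Myh7 was -6.48 ± 2.26, Myh2 -2.81 ± 0.83 and Myh3 -1.67 ± 0.79 (SE), no smaller than without the block but with larger errors and not called. Myh4 was 1.64 ± 1.07 and Myh8 0.27 ± 0.26, both smaller than without the block and not called.

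The muscle labels matched the fibre type lists. All 11 fast-fibre genes outside the thick filament were higher in EDL and called in both genotypes, and all 10 measured slow-fibre genes were lower and called. Of 4 slow partners, 3 fell in EDL, among them Myl6b with -3.42 ± 0.31 in WT, and 3 of 3 fast partners rose, among them Mybpc2 with 3.43 ± 0.34 in WT. Among regulators, linc-MYH was 3.26 ± 0.31 higher in EDL of Ts1Cje mice and 2.79 ± 0.31 higher in WT, Prox1, a driver of slow-fibre genes, was -2.62 ± 0.28 in WT, and Tbx15, a fast-fibre factor, was 1.54 ± 0.18 in WT. Unc45b, the muscle myosin chaperone, was 0.90 ± 0.10 higher in EDL of Ts1Cje mice and 1.0 ± 0.10 higher in EDL of WT mice.

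The EDL arrays differed widely in slow-fibre transcripts within each genotype. Myh7 levels were 3.07, 2.37 and 5.65 in EDL Ts1Cje and 6.44, -0.02 and 5.74 in EDL WT. The array with the lowest level, WT replicate 2, was 6.46 log2 units below the highest. The SD of 1.72 in EDL Ts1Cje ranked 24 from the largest of 14171 genes there, and the SD of 3.55 in EDL WT ranked 2.

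Several slow-fibre genes were also lowest in EDL WT replicate 2, and others were not. Myh7b had levels of 0.71, 0.78 and 2.38 in EDL Ts1Cje and 3.09, 0.35 and 2.37 in EDL WT. Myl3, the slow essential light chain, had 4.88, 3.88 and 6.54 in Ts1Cje and 7.24, 3.32 and 6.85 in WT, and Tnnt1, the slow troponin T, had 4.48, 3.96 and 6.18 in Ts1Cje and 6.84, 3.92 and 6.09 in WT. WT replicate 2 was the lowest EDL array for all 4 of Myh7, Myh7b, Myl3 and Tnnt1, and also for Myl2, Tnni1, Tnnc1 and Myh2. For Sln and Myl6b the lowest was WT replicate 3, at -0.41 for Sln and 1.40 for Myl6b, where WT replicate 2 had 1.49 and 1.64. For Atp2a2, the slow calcium pump, the lowest was Ts1Cje replicate 2, at 1.13, with 1.30 in WT replicate 2. Replicate 3 of each genotype had the highest Myh2, at 9.47 in Ts1Cje and 9.48 in WT, and the lowest Myh4, at 11.25 in both. Their part in the EDL genotype values was not tested.

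**Figure D4:**
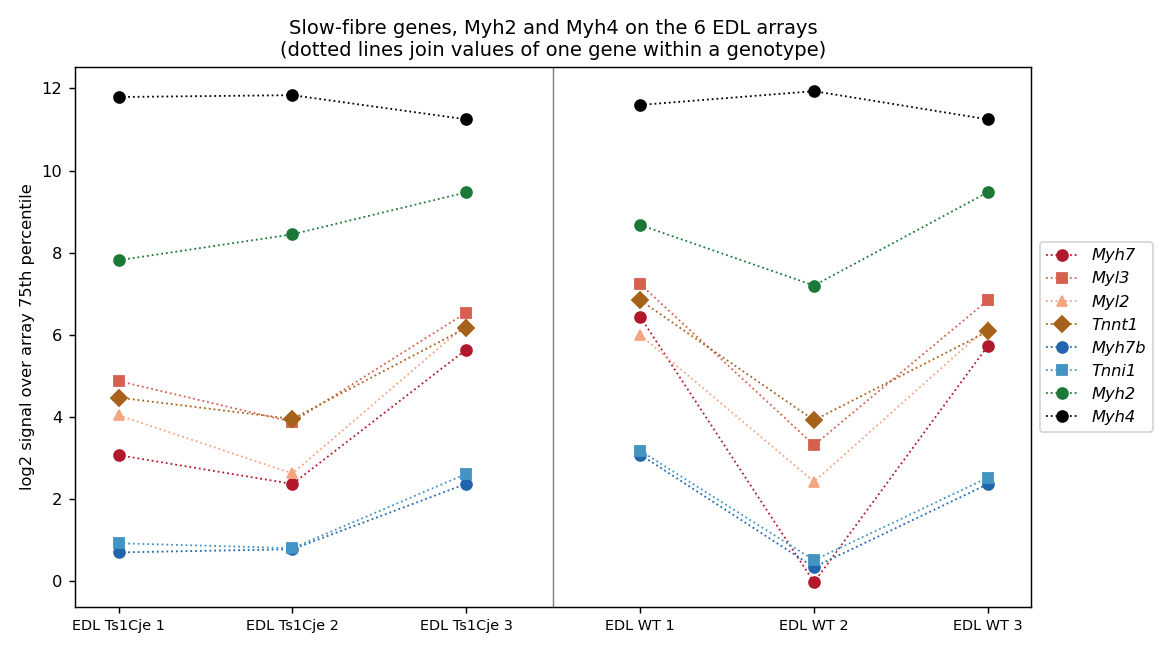
Levels of Myh7, Myh7b, Myh2 and Myh4 and of the slow-fibre genes Myl3, Myl2, Tnnt1 and Tnni1 (log2 signal over the 75th percentile of the array) on the 6 EDL arrays, 3 Ts1Cje on the left and 3 WT on the right. WT replicate 2 is the lowest array for Myh7, at -0.02, while Myh4 stays between 11.25 and 11.94.

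The genes with profiles most like each member over the 14 arrays were found by the root mean square difference of the log2 values, each gene centred on its own mean. Closest to Myh4 were Pvalb (1.12), Actn3 (1.16) and Lrtm2 (1.26), and closest to Myh7 were Myl3 (0.64), Myl2 (0.76) and Tnnc1 (0.83). Closest to Myh7b were Tnnc1 (0.19), Tnni1 (0.20) and Atp2a2 (0.28), closest to Myh2 were Smtnl1 (0.37), Ldhb (0.41) and Pdlim1 (0.42), and closest to Myh8 were the fast troponins Tnni2 (0.08) and Tnnc2 (0.09) and Nkg7 (0.12). Myh1 had Ric1 (0.13), Akirin1 (0.16) and Golm1 (0.16). Myh3 had Mamdc2 (0.39), Ablim1 (0.43) and Gm11033 (0.44), and Myh6 had Tnnt2 (0.35), Zfp385c (0.38) and Pcp4 (0.38).

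In a fit of all 25183 kept probes, 1 of the 11 kept member probes was called between genotypes in the soleus (0.163% of all probes), 0 in the EDL (0.0119%), and 9 between muscles in each genotype (27% in Ts1Cje and 26.1% in WT). Probes of 1 gene did not always show the same values. Myh8 has 4 probes. Probe A_51_P143296 had levels of 10.94 to 12.40, A_55_P2120161 had 3.6 to 6.26, A_55_P2120169 was well above background on 1 of 14 arrays and A_51_P239800 on 0. The 2 detected probes both gave higher levels in EDL, by 1.0 and 1.99 in Ts1Cje and by 0.75 and 1.56 in WT.

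Myh6 also differed between its probes. Probe A_55_P2173952 was above background on all 14 arrays and gave no call, with EDL minus soleus at -0.32 in Ts1Cje and -0.68 in WT. Probe A_55_P2140453 was well above background on 1 of 3 EDL Ts1Cje arrays, 0 of 3 EDL WT arrays and 8 of 8 soleus arrays. It was kept through the soleus arrays, so no fold difference is given for it. Its calls, which are among the 9 in each genotype, are not read as a result. The 2 Myh3 probes gave similar values, at -2.22 and -2.01 in Ts1Cje and -1.67 and -1.65 in WT. Which probe of Myh8 or Myh6 measures the named transcript was not tested.

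**Figure D5:**
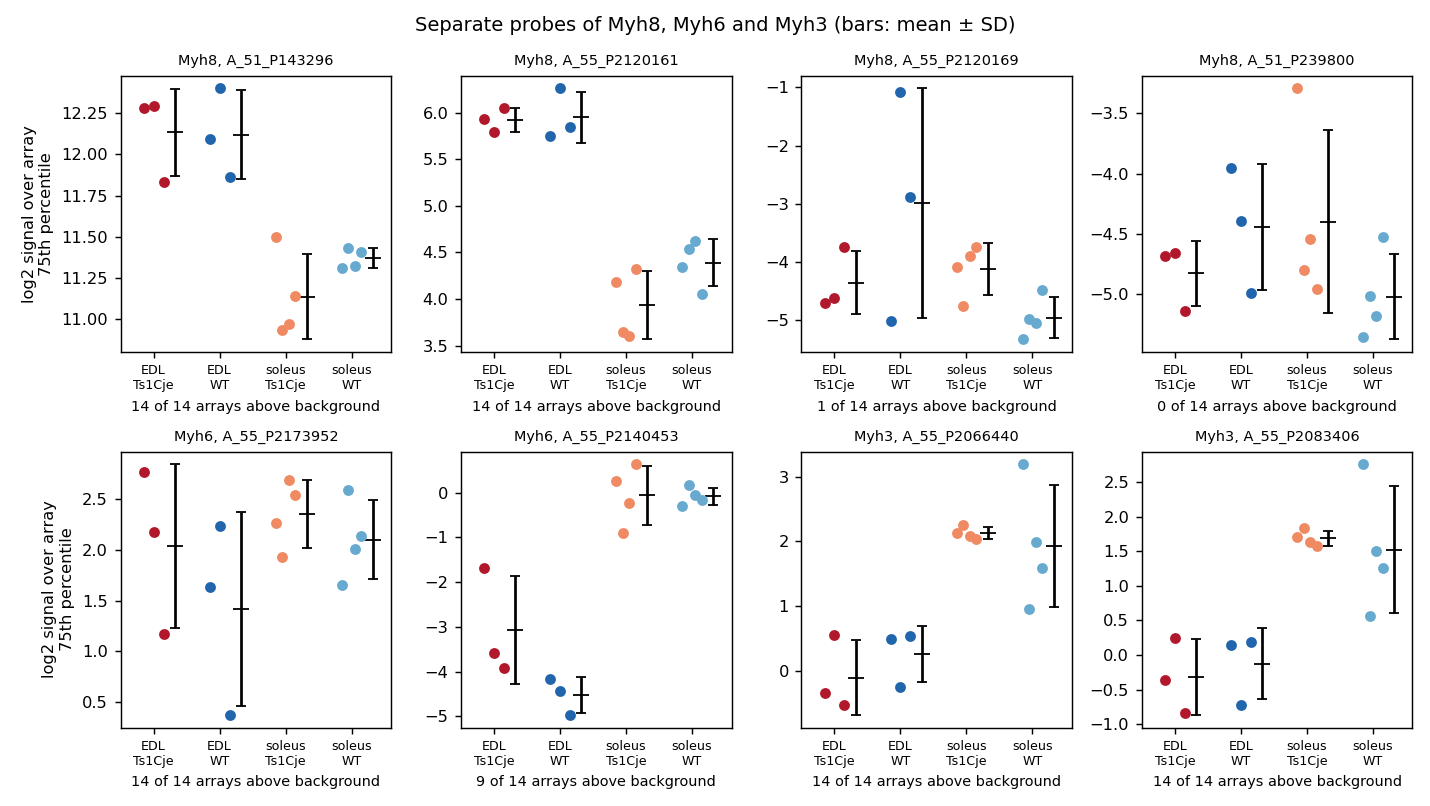
Levels of each probe of Myh8, Myh6 and Myh3 (log2 signal over the 75th percentile of the array) on the 14 arrays, with the mean and SD of each group and the number of arrays on which the probe was well above background. The Myh8 probe A_51_P239800 was above background on 0 of 14 arrays, and A_51_P143296 on 14.

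The promoters of the neighbouring fast genes Myh4, Myh1 and Myh2 are given because their levels part in the soleus. The 250 bases before the annotated start come from RefSeq (GRCm38.p6), with capitals where a motif matched on either strand. The motifs searched were the TATA box, as TATAAA, the CArG box and the MEF2 site by their usual patterns, and the E-box, as CANNTG.

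Myh4, chr11:67237562-67237811, plus strand: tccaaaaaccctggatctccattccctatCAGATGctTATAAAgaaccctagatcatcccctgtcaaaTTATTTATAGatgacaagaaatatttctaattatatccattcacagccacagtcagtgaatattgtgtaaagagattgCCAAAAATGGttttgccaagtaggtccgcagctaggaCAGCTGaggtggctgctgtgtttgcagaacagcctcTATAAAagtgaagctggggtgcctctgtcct
Myh1, chr11:67199852-67200101, plus strand: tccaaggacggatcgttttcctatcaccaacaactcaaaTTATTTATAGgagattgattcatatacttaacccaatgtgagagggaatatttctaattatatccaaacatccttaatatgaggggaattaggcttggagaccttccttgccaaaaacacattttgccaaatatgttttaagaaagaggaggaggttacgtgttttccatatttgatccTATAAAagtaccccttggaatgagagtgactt
Myh2, chr11:67170777-67171026, plus strand: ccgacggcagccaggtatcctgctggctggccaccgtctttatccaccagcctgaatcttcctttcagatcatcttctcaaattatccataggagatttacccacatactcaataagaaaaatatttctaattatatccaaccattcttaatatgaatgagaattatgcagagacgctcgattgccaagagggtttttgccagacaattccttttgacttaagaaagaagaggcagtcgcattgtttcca

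Myh4 held 3 matches to TATAAA, of which the nearest began 31 bases before the start, 2 E-boxes, 1 CArG box and 1 MEF2 site, and one TATAAA match lies on the opposite strand inside the MEF2 site. Myh1 held 2 TATAAA matches, of which one lies likewise inside its MEF2 site, and no E-box, and Myh2 held none of the 4 motifs. Of all 32851 promoters in the table, 12.4% held TATAAA, 66.2% an E-box, 1.47% a CArG box and 2.92% a MEF2 site. A match is a sequence feature and not a binding site.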

How the data were processed

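Whole skeletal muscle RNA was measured on 1-colour (Cy3) Agilent arrays, 14 in all. Per the file headers, the authors extracted spots with Agilent Feature Extraction 11.5.1.1 and the build was mm9; per the submitters' processing notes, the version was 9.1. The deposited gProcessedSignal is an intensity, background subtracted and detrended, with no normalization between arrays. The authors' deposited normalized table is in log2 units, scaled to each array's 75th percentile and centred per probe; its direction and scale matched the scanner values (r of at least 0.99989). Other deposited columns of 0 or 1 mark flagged spots. Control spots were left out, and outlier spots too unless all spots of a probe on that array were outliers. Spots of a probe were averaged, and values taken as log2 signal minus the log2 75th percentile. Dim probes were dropped unless all arrays of at least 1 group had them well above background, which left 25183 of 55681. The kept probe of highest mean stood for its gene.

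The 4 group means were fitted with limma 3.58.1 (R 4.3.3), with Benjamini-Hochberg adjustment over 14171 genes and calls at an adjusted p under 0.05. Exact permutation tests used Python 3.11.15. The fit was tested on simulated data. Members and gene lists were chosen with earlier results of these data known. Named genes were all members, the 3 genes of most similar profile, and from each list up to 4 called genes of smallest p or, with none called, up to 2. Deviations of same-numbered Ts1Cje and WT arrays from their group means correlated by 0.40, 0.12 and 0.31 in the EDL. In the soleus they correlated by -0.12, -0.29, 0.01 and -0.13. Soleus arrays of unlike number ranged from -0.17 to 0.43. The highest were Ts1Cje replicate 2 with WT replicate 1 (0.43) and Ts1Cje replicate 3 with WT replicate 2 (0.30). Same-numbered EDL arrays also held neighbouring places on the slide, so pairing and place cannot be told apart there. The labels do not say that the numbers mark pairs. The main fit used no pairing in either muscle. The replicate block, given below as an alternative, paired same-numbered arrays in both muscles. The labels do not say that arrays of a group are separate animals, so p-values measure the spread between arrays.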

Additional observations from a re-analysis of the deposited data

How the results depend on the processing

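The soleus Myh4 call held under normexp, quantile scaling, the authors' table, no filter, the mean of probes, array weights and trended variance. It also held with each array left out. The call held too with the 75th percentile taken over probes well above background on every array, a scaling chosen after seeing the data. Slide as a block gave the same value as leaving out soleus Ts1Cje replicate 1 (-4.26, limma, adjusted p = 0.0175), so it is no separate check. The call held with the replicate block (limma, adjusted p = 0.0475), although the soleus deviations gave no sign of pairing by number. It was lost with only the soleus groups fitted and within slide 2, where 0 members were called. The replicate block changed no member's call. Counts of genes called in the soleus, 35, were 15 with normexp, 6 with no filter, 23 with the mean of probes, 4 with only those groups, 18 with slide as a block, 1 within slide 2, 7 with the replicate block, and 10 to 28 with each array left out. In the EDL the 1 gene called became 2 with quantile scaling or no filter, 3 with trended variance, and 1 to 3 with each array left out. For the difference between muscles, each array left out gave 0 to 1 genes and 0 to 1 members called. For EDL minus soleus, slide as a block left 2069 genes called in Ts1Cje and 1368 in WT, where 1 member was called, and normexp gave 2287 in WT. Signs turned in values that were not called. In the EDL genotype difference Myh8 was -0.00045 with normexp, 0 with quantile and -0.0040 with the mean of probes, and Myh4 was -0.036 with quantile. With array weights the same difference was -0.028 for Myh1 and -0.19 for Myh2. With each array left out, that difference ranged from -2.39 to 0.84 for Myh7, -0.14 to 0.22 for Myh4, -0.11 to 0.17 for Myh8, -0.13 to 0.19 for Myh1 and -0.50 to 0.64 for Myh2. In the soleus, Myh2 was 0.0039 with quantile, and ranges were -0.22 to 0.054 for Myh1, -0.20 to 0.010 for Myh2 and -0.13 to 0.61 for Myh3. For the difference between muscles, Myh2 was -0.079 with array weights, and ranges were -2.58 to 0.65 for Myh7, -0.42 to 0.71 for Myh2, -0.15 to 0.80 for Myh6 and -0.027 to 0.29 for Myh1. Quantile scaling put Myh1 at -0.13 in Ts1Cje and -0.21 in WT for EDL minus soleus and ended the calls of Myh8, and of Myh4 in WT (1.60, adjusted p = 0.0536); the mean of probes put Myh6 at -1.66 in Ts1Cje and -2.56 in WT, past the threshold, but averages in a probe not above background on most EDL arrays, and Myh6 ranged from -0.68 to 0.12 in Ts1Cje with each array left out. The cause was not tested. The number of arrays limits the precision.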
